A study of Rattus norvegicus with 18 samples.

Results

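Transforming growth factor beta (TGF-beta) is the signalling protein most closely tied to scarring of the kidney. Cells secrete it bound in a latent complex, matrix proteins and integrins release it, and the freed ligand joins a type 2 and a type 1 receptor kinase that phosphorylate Smad proteins. Smads then enter the nucleus and raise the transcription of matrix genes, of the matricellular protein Ccn2 (connective tissue growth factor) and of Timp1, an inhibitor of the proteases that break matrix down. Genes of this pathway were read in kidneys of 2 rat strains. The genes were 8 in number by name: the ligands Tgfb1, Tgfb2 and Tgfb3, the receptors Tgfbr1 and Tgfbr2, the activator Thbs1, and the downstream genes Ccn2 and Timp1. All probe sets whose platform annotation gave one of these as the single gene symbol were taken, which gave 16 of 26202 probe sets (controls left out) for 6 of the 8 genes. No probe set had Tgfbr2 or Thbs1 as its single symbol, and these genes were not analysed here.

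The kidneys came from the inbred Dahl salt-sensitive (S) rat and from a congenic strain on the S background. By its label the congenic strain carries chromosome 9 alleles of a salt-resistant (R) rat that include a blood pressure quantitative trait locus, so both groups share the S genome outside that segment. There were 3 total RNA samples per strain, and every sample was hybridised to arrays of 3 designs (types A, B and C), which made 18 arrays. A probe set is a small group of probes against one transcript and gives 1 signal per array. Age, sex and diet are not given in the labels used here. No label states that the samples came from different animals, and the p-values therefore cover only the spread among these samples, part of which may be technical.

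The median signal of an array was between 34.8 and 45.9 units for type A, between 60.4 and 78.5 for type B and between 61.1 and 75.6 for type C, and the number of arrays limits the precision. Of 13 tested kidney markers 0 had a signal of 0 in any sample, and 12 were above the level of the filter on dim probe sets in all 6 samples. The samples numbered 1 stood apart in both strains. Beta-actin control signal at the 3 prime end over that at the 5 prime end, a measure of RNA quality taken as a mean log2 ratio, was 0.49 and 0.50 in the samples numbered 1 and 1.06 to 1.35 in the other 4, and that of GAPDH was 0.11 and 0.31 against 0.54 to 0.68.

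The promoters of Ccn2 and Timp1, the members with the smallest p-values below, are shown with the letters of some known motifs marked. They are the 250 bases upstream of the RefSeq transcript start in the GRCr8 assembly, for Ccn2 chr1:22624615-22624864 and for Timp1 chrX:3771123-3771372, both on the minus strand and written 5′ to 3′ along the gene. Capitals mark CAGAC, a core of Smad binding elements, GGAATG, the core of TEAD (Hippo pathway) sites, TGAGTAA, a variant of the AP-1 site, and TATAAA, the TATA box, each searched on both strands and chosen after the sequences had been seen.
Ccn2: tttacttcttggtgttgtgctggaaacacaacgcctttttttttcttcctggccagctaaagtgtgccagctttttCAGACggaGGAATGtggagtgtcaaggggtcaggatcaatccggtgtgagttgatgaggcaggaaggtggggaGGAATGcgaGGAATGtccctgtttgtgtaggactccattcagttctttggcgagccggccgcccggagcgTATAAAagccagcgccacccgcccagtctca
Timp1: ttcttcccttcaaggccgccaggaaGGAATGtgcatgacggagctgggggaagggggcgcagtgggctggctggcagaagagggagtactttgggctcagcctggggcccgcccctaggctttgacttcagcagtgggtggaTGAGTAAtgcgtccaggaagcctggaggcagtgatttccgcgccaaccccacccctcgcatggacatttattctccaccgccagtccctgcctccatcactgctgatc
The Ccn2 window held CAGAC 1 time, GGAATG 3 times and TATAAA 1 time. Of 33469 windows of the same length, 42.9% held CAGAC, 12.1% held GGAATG at least 1 time, 0.0807% held it at least 3 times and 12.9% held TATAAA. The Timp1 window held GGAATG 1 time and TGAGTAA 1 time, and TGAGTAA was in 2.38% of all windows. It held the Smad core CAGAC 0 times and TATAAA 0 times. The windows of Tgfb1, Tgfb2, Tgfb3 and Tgfbr1 held 0 of these letters. A match describes the letters of the reference sequence and is not a measured site.

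Across the kidneys, Ccn2 and Timp1 read lower in the congenic strain, by 2.55-fold on the Ccn2 probe set and by 1.32-, 2.84- and 3.41-fold on the 3 Timp1 probe sets. The 95% confidence intervals of the Ccn2 probe set and of Timp1 probe sets 2 and 3 lay below 0, and those of Timp1 probe set 1 and of the 6 tested ligand and receptor probe sets spanned 0. No member passed the adjusted threshold. With limma and a Benjamini-Hochberg adjustment at 0.05, 0 of the 10 tested member probe sets were called, and 0 of 15721 over all tested probe sets (0%). At an unadjusted limma p under 0.05 the numbers were 3 of 10 and 391 of 15721 (2.49%). The share over all tested probe sets is below the 0.05 that this threshold gives where no probe set differs. The 3 member probe sets were 1 of Ccn2 and 2 of Timp1, all with lower congenic signal. Of all tested probe sets, 1.32% had such a p with lower congenic signal. The 2 Timp1 probe sets were made from the same transcript sequence and are not independent readings. The members were chosen with earlier results of these data known. Member shares set against all tested probe sets or genes therefore describe and do not test. The other 6 of the 16 member probe sets were too dim to be tested, with a mean log2 signal below the 40th percentile of their array type. With each gene represented by its brightest tested probe set, 4 of 6 members read lower (median log2 difference -0.34), against 51.1% of 8168 tested genes (median -0.0065). In bulk tissue, fewer cells of a type and less RNA per cell cannot be told apart.

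**Figure D1:**
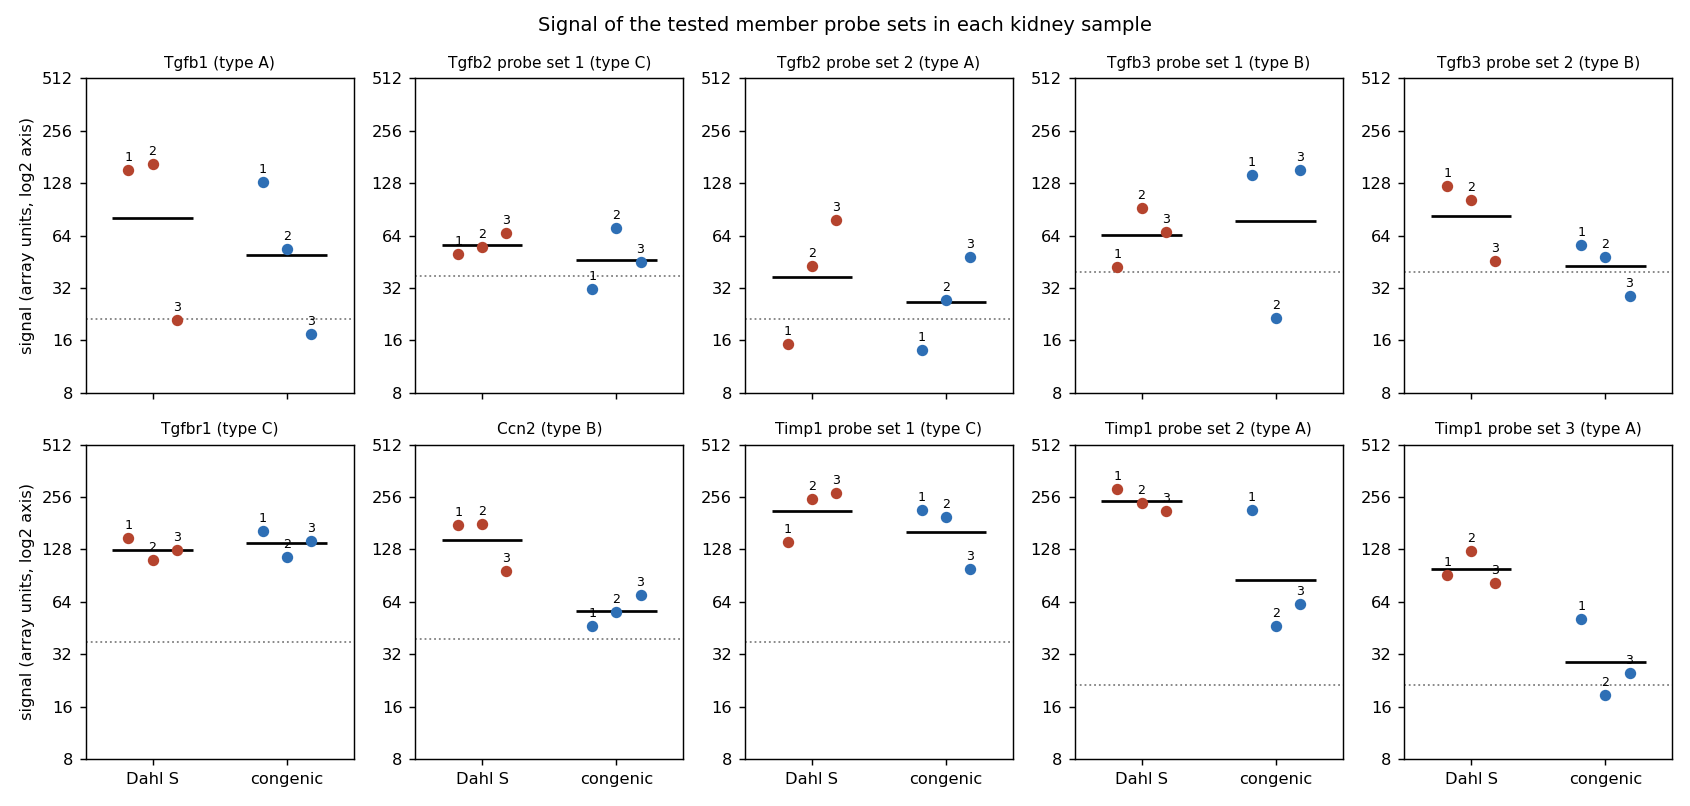
Signal of the 10 tested member probe sets in each sample (vertical axis in array units on a log2 scale, numbers give the sample, horizontal bars the geometric mean of 3 samples, dotted lines the level of the filter on dim probe sets). The congenic samples lie below all Dahl S samples for Ccn2 and for Timp1 probe set 3, and overlap them in the other 8 panels.

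Ccn2 encodes a secreted matricellular protein that is induced by TGF-beta and by the TEAD coactivator YAP, and that promotes matrix deposition. Its tested probe set, on type B, read 175.6, 179.4 and 95.5 in Dahl S samples 1, 2 and 3 and 46.3, 56.2 and 69.6 in congenic samples 1, 2 and 3, the order used throughout. All congenic values lay below all Dahl S values, as in 3.49% of all tested probe sets, and all 6 were above the filter level of 39.3. The geometric mean was 144 (SD 0.52 log2 units, n = 3) in Dahl S and 56.6 (SD 0.29, n = 3) in the congenic kidneys. The log2 difference was -1.35 (SE 0.40, 95% confidence interval -2.24 to -0.46) and the adjusted limma p was 0.9997, as for each of the other tested member probe sets. An exact two-sided permutation test gave p = 0.1, the smallest that 3 samples against 3 allow. The difference was -1.92, -1.67 and -0.46 between the samples numbered 1, 2 and 3. It ran from -1.19 without Dahl S sample 2 to -1.65 without Dahl S sample 3. A second Ccn2 probe set on type B was not tested: it read 2.7 to 6.6 in Dahl S and 4.7 to 26.8 in the congenic kidneys, all below the filter level.

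Timp1 encodes a secreted inhibitor of matrix metalloproteinases and is a common readout of matrix remodelling in injured kidney. Its brightest probe set (1, on type C) read 141.8, 249.0 and 271.1 in Dahl S and 216.2, 195.7 and 98.3 in the congenic kidneys. The strains overlapped, and the log2 difference was -0.40 (SE 0.35, exact permutation p = 0.5, two-sided here and below). Probe set 2, on type A, read 283.2, 237.4 and 211.9 in Dahl S and 214.6, 46.3 and 62.5 in the congenic kidneys. Congenic sample 1 thus lay within the Dahl S range and the other congenic samples far below it, for a difference of -1.51 (SE 0.51, exact permutation p = 0.2). Probe set 3, also on type A, read 91.6, 125.8 and 82.0 in Dahl S and 50.8, 18.7 and 25 in the congenic kidneys. Here the strains did not overlap, and the difference was -1.77 (SE 0.43, 95% confidence interval -2.76 to -0.78, exact permutation p = 0.1). Probe set 3 held rank 15 by p among the 15721 tested probe sets, and Ccn2 held rank 41. As the members were chosen with earlier results of these data known, these ranks describe and do not test. On probe set 3, congenic sample 2 was below the type A filter level of 21.2, so the size of its strain difference is uncertain.

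Probe sets 2 and 3 were made from the same transcript sequence and read together (Pearson r 0.94 over the 6 samples, as a description), so they are not independent readings. Each correlated less with the type C probe set (r 0.43 and 0.47). The mean of the 3 probe sets differed by -1.23 (SE 0.37) and did not pass the adjusted threshold. Whether the probe sets differ from each other in their strain difference was not tested.

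The size of the Timp1 difference moved with the sample number. Between the samples numbered 1 it was +0.61, -0.40 and -0.85 on probe sets 1, 2 and 3, and between the means of samples 2 and 3 it was -0.91, -2.06 and -2.23. Taken singly, the samples numbered 2 and 3 gave -0.35 and -1.46 on probe set 1. They gave -2.36 and -1.76 on probe set 2, and -2.75 and -1.71 on probe set 3. On probe set 1 the numbers 2 and 3 thus also lay far apart. The control ratios set only the samples numbered 1 apart, and the part of RNA quality in the Timp1 values was not tested. Without congenic sample 1 the differences were -0.61, -2.17 and -2.18. Without congenic sample 3 the type C difference was -0.046, and without congenic sample 2 that of probe set 2 was -1.07 (SE 0.49). Probe set 2 no longer had an unadjusted limma p under 0.05 in that case, nor without congenic sample 3 (-1.28, SE 0.57), nor with dim probe sets kept in the fit (-1.51, SE 0.60). The Ccn2 difference was smaller, at -1.07 (SE 0.49), without both samples numbered 1, where its unadjusted limma p was above 0.05. By number, the samples numbered 3 stood apart for Ccn2, at -0.46 against -1.92 and -1.67 for numbers 1 and 2.

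**Figure D2:**
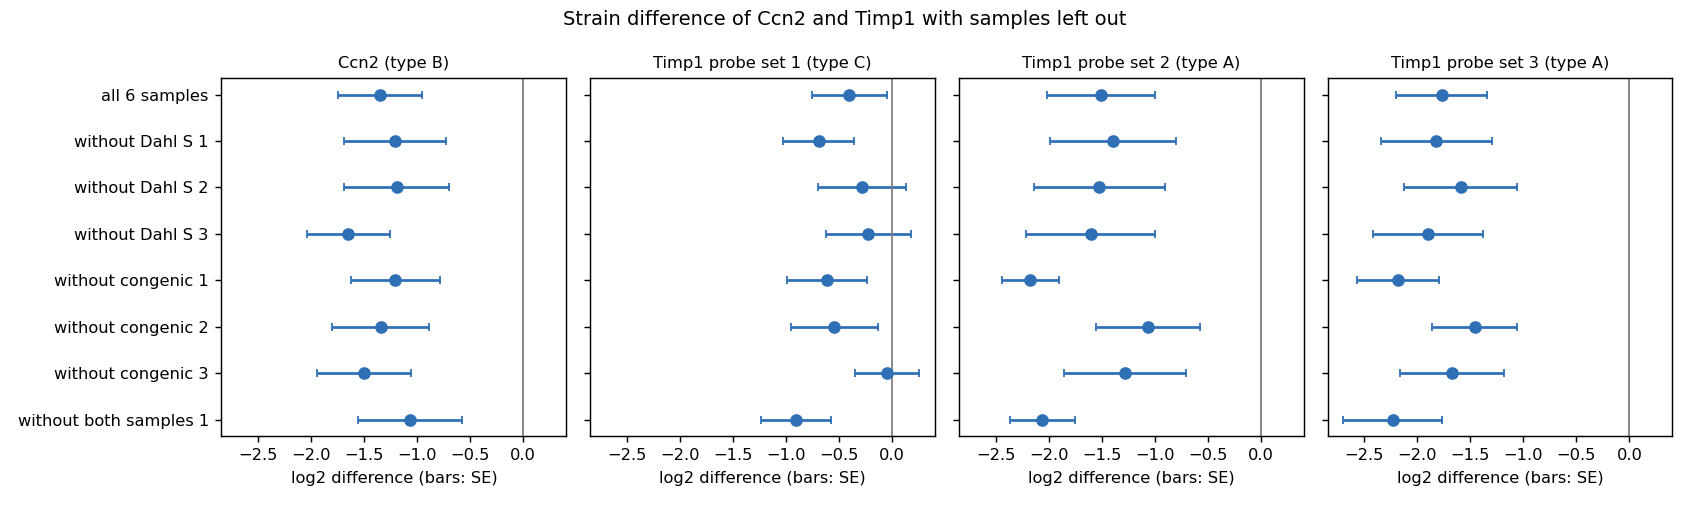
Log2 difference (congenic minus Dahl S, bars are the standard error from limma) of the Ccn2 probe set and the 3 Timp1 probe sets with all samples, without each sample and without both samples numbered 1. Ccn2 and Timp1 probe sets 2 and 3 stay below 0 throughout, and Timp1 probe set 1 reaches -0.046 without congenic sample 3.

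The intervals of all 5 tested ligand probe sets spanned 0. Tgfb1, the isoform most studied in kidney fibrosis, read 152.2, 165.4 and 20.9 in Dahl S and 130.4, 53.6 and 17.3 in the congenic kidneys. Both samples numbered 3 were below the type A filter level, and the strains overlapped. The log2 difference was -0.71 (SE 0.94, 95% confidence interval -2.85 to 1.44, exact permutation p = 0.5). It moved from -1.68 without Dahl S sample 3 to +0.050 without congenic sample 3, so its sign rests on single samples.

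Tgfb2, a second isoform, had 2 tested probe sets. The type C probe set read 49.9, 55.0 and 66.6 in Dahl S and 31.7, 70.8 and 45.0 in the congenic kidneys, with congenic sample 1 below the filter level of 37.7, a difference of -0.29 (SE 0.41, exact permutation p = 0.5). This ranged from -0.59 without congenic sample 2 to -0.0078 without congenic sample 1. The type A probe set read 15.2, 42.7 and 78.9 against 14.1, 27.4 and 48.0, a difference of -0.49 (SE 0.71, exact permutation p = 0.7). It was -1.13 without Dahl S sample 1 and +0.055 without Dahl S sample 3, so its sign also rests on single samples. On type A both strains were lowest in sample 1 and highest in sample 3, and samples numbered 1 were below the filter level.

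Tgfb3, the third isoform, had 2 tested probe sets on type B that differed in sign. The first read 42.2, 92.7 and 67.4 in Dahl S and 142.7, 21.4 and 151.9 in the congenic kidneys, with congenic samples 1 and 3 above and sample 2 below every Dahl S value (difference +0.27, SE 0.74, exact permutation p = 0.8). The second read 123.5, 102.4 and 46.0 against 56.2, 48.0 and 28.9, a difference of -0.97 (SE 0.54, exact permutation p = 0.3). It was lower in the congenic sample of each number (-1.14, -1.09 and -0.67), but Dahl S sample 3 lay inside the congenic range. Congenic sample 2 on the first probe set and congenic sample 3 on the second were below the type B filter level of 39.3. Both sizes are therefore uncertain. The readings of these probe sets had a Pearson r of -0.27 over the 6 samples, and the type A pair for Tgfb3, at 5.6 to 33, was too dim to test.

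Tgfbr1, the type 1 receptor kinase that phosphorylates Smad2 and Smad3, had the smallest SE of the 10 tested probe sets. Its type C probe set read 148.9, 111.0 and 126.1 in Dahl S and 163.7, 115.2 and 143.5 in the congenic kidneys. The difference was +0.13 (SE 0.23, 95% confidence interval -0.39 to 0.64, exact permutation p = 0.5). Its other probe sets, both on type A, read 1.6 to 18 and were not tested.

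**Figure D3:**
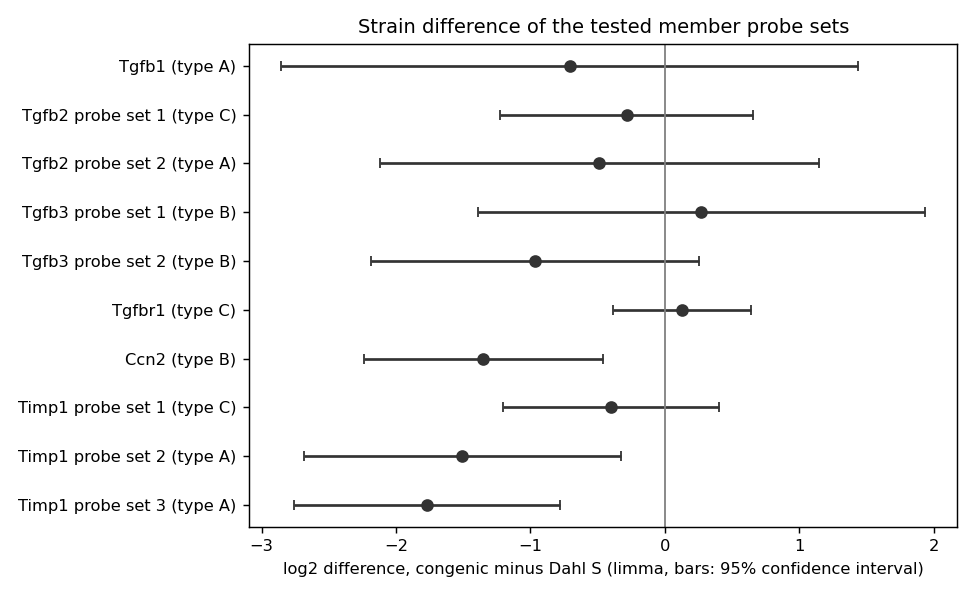
Log2 difference (congenic minus Dahl S) of the 10 tested member probe sets, with unadjusted 95% confidence intervals from limma. The intervals of Ccn2 and of Timp1 probe sets 2 and 3 lie below 0, and those of Timp1 probe set 1, the ligands and Tgfbr1 span 0.

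How the members varied together depended on the probe set. The Pearson r of log2 signal over the 6 samples, both strains included, was 0.075 between Ccn2 and Timp1 probe set 1, 0.58 between Ccn2 and Timp1 probe set 2 and 0.78 between Ccn2 and Timp1 probe set 3. Among the brightest probe sets of the 6 members, r was 0.38 between Ccn2 and Tgfb1, 0.28 between Timp1 and Tgfb1, 0.47 between Tgfb3 and Tgfbr1, -0.73 between Tgfb2 and Tgfb3 and -0.83 between Tgfb2 and Tgfbr1. The highest r among the 40 pairs of tested probe sets of different members was 0.87, between Tgfb1 and the second Tgfb3 probe set. These are descriptions over the same 6 RNA samples, with the strain difference included in each r. The genes whose pattern was most like that of Ccn2 were Cxcl11, a chemokine (r 0.978, difference -0.70, SE 0.49), Cnppd1 (r 0.977, -0.31, SE 0.18) and Wdr1, an actin-disassembly factor (r 0.975, -0.22, SE 0.13). For Timp1 only probe set 1 was used, and they were Ngdn, the carbonic anhydrase gene Car14 and Ggnbp2 (r 0.995, 0.986 and 0.98). For Tgfb1 they were Sirt2, a deacetylase, Mrpl14, a mitochondrial ribosomal protein, and Jaml (r 0.993, 0.984 and 0.983). Among 8168 tested genes, an r above 0.9 was reached by 43 others with Ccn2, 43 with Timp1 probe set 1 and 99 with Tgfb1. How many would reach it with a gene drawn at random was not tested.

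Genes around the members in the pathway were read from 9 lists of 171 genes in all, of which 118 could be tested. Of these 73 were lower and 45 higher in the congenic kidneys (61.9% lower, against 51.1% of all tested genes; median log2 difference -0.075). With limma 0 passed the adjusted threshold, and 6 had an unadjusted p under 0.05 with lower congenic signal (5.08%, against 1.36% of all tested genes) and 1 with higher (0.847%, against 0.992%). The lists were chosen with earlier results known, so these shares describe and do not test.

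Among 13 genes of TGF-beta latency and activation 8 were lower and 5 higher (median -0.051). Fbn1, the fibrillin of the microfibrils that hold latent TGF-beta, read 466.2, 272.1 and 287.2 in Dahl S and 161.2, 248.3 and 195.0 in the congenic kidneys (difference -0.74, SE 0.28), without overlap. Its 3 tested probe sets ranged from -0.74 to -0.19, with a mean of -0.40 (SE 0.35), and 3 of 6 fits with 1 sample left out kept an unadjusted limma p under 0.05. The latent TGF-beta binding proteins differed by less than their SE: Ltbp1 by -0.23 (SE 0.27), Ltbp3 by +0.20 (SE 0.32) and Ltbp4 by -0.17 (SE 0.22). Thbs4 was too dim to test.

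Receptors of the superfamily other than the members had 6 of 9 genes lower (median -0.084), and 0 had an unadjusted limma p under 0.05. The smallest p-values were those of the activin receptors Acvr2a (-1.47, SE 0.67) and Acvr1 (-1.10, SE 0.60). Acvr2a read 50.1, 36.9 and 66.5 in Dahl S and 29.0, 6.5 and 30.6 in the congenic kidneys. Congenic sample 2 was below the type A filter level in both, and for Acvr1 sample 3 as well, so their sizes are uncertain.

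Smads and their regulators had 8 of 15 genes lower (median -0.049), and 0 had an unadjusted limma p under 0.05. The TGF-beta-activated Smad2 and Smad3 differed by +0.13 (SE 0.24) and -0.07 (SE 0.17), the common partner Smad4 by +0.14 (SE 0.24) and the inhibitory Smad6 by -0.05 (SE 0.23). Smad1, which acts downstream of BMP receptors, read 98.5, 83.7 and 97.2 in Dahl S and 63.4, 68.2 and 33.5 in the congenic kidneys (-0.82, SE 0.44), where congenic sample 3 was below the filter level. The phosphatase Ppm1a differed by -0.39 (SE 0.29).

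BMP, activin and GDF ligands and their antagonists had 5 of 9 genes lower (median -0.16), and 0 had an unadjusted limma p under 0.05. The smallest p-values were those of the inhibin subunit Inha (+0.52, SE 0.26), whose second probe set read -0.32, and of the activin antagonist Fst (+0.24, SE 0.22). A further 7 of the list, Grem1 and Nog among them, were too dim to test.

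The list of TGF-beta target genes had 16 of 24 genes lower and 8 higher (median -0.16), and 2 had an unadjusted limma p under 0.05. Col1a1, a chain of type I collagen, read 909.4, 1048.3 and 966.1 in Dahl S and 782.3, 704.5 and 753.0 in the congenic kidneys (-0.38, SE 0.13). Acta2, the smooth muscle actin of myofibroblasts and vessels, read 241.5, 352.9 and 324.9 against 188.9, 135.6 and 266.0 (-0.67, SE 0.27), with congenic sample 3 inside the Dahl S range. Its 4 tested probe sets ranged from -0.67 to -0.20, with a mean of -0.40 (SE 0.32), and an unadjusted limma p under 0.05 was kept in 2 of 6 fits with 1 sample left out. The 4 Col1a1 probe sets ranged from -0.38 to -0.36, and 5 of 6 such fits kept it.

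Matrix proteases and their inhibitors had 10 of 17 genes lower (median -0.13). Adamts1, a secreted protease of proteoglycans, read 150.4, 268.4 and 259.1 in Dahl S and 127.3, 132.1 and 140.7 in the congenic kidneys (-0.71, SE 0.25). Plg, the plasminogen precursor, read 21.9, 27.1 and 28.4 against 63.2, 97.0 and 51.2 (+1.41, SE 0.44), and all 3 Dahl S values were below the filter level of its array type, so the size is uncertain. On their brightest probe sets the other TIMP genes differed less in value than Timp1 (-0.40). Timp2 was at -0.18 (SE 0.17), Timp3 at +0.15 (SE 0.16) and Timp4 at +0.12 (SE 0.31). This order does not hold over all probe sets: the 8 of Timp3 ranged from -0.83 to +0.41, so the lowest differed more than the brightest of Timp1.

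Ccn1, the CCN family gene nearest in kind to Ccn2, read 217.5, 197.9 and 308.7 in Dahl S and 182.6, 134.1 and 206.2 in the congenic kidneys (-0.47, SE 0.24). Among 20 other growth factors and cytokines 11 were lower (median -0.030). An unadjusted limma p under 0.05 was found for 2 of them. Spp1, osteopontin, read 2485.2, 3747.4 and 2618.3 in Dahl S and 1284.9, 1199.6 and 1807.7 in the congenic kidneys, without overlap (-1.04, SE 0.21). Lgals3, galectin-3 of macrophages and injured tubules, read 156.8, 218.3 and 149.7 in Dahl S and 135.2, 71.6 and 103.0 in the congenic kidneys (-0.79, SE 0.29). With 1 sample left out, an unadjusted limma p under 0.05 was kept in 6 of 6 fits for Spp1, 5 for Plg and 4 each for Adamts1 and Lgals3.

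**Figure D4:**
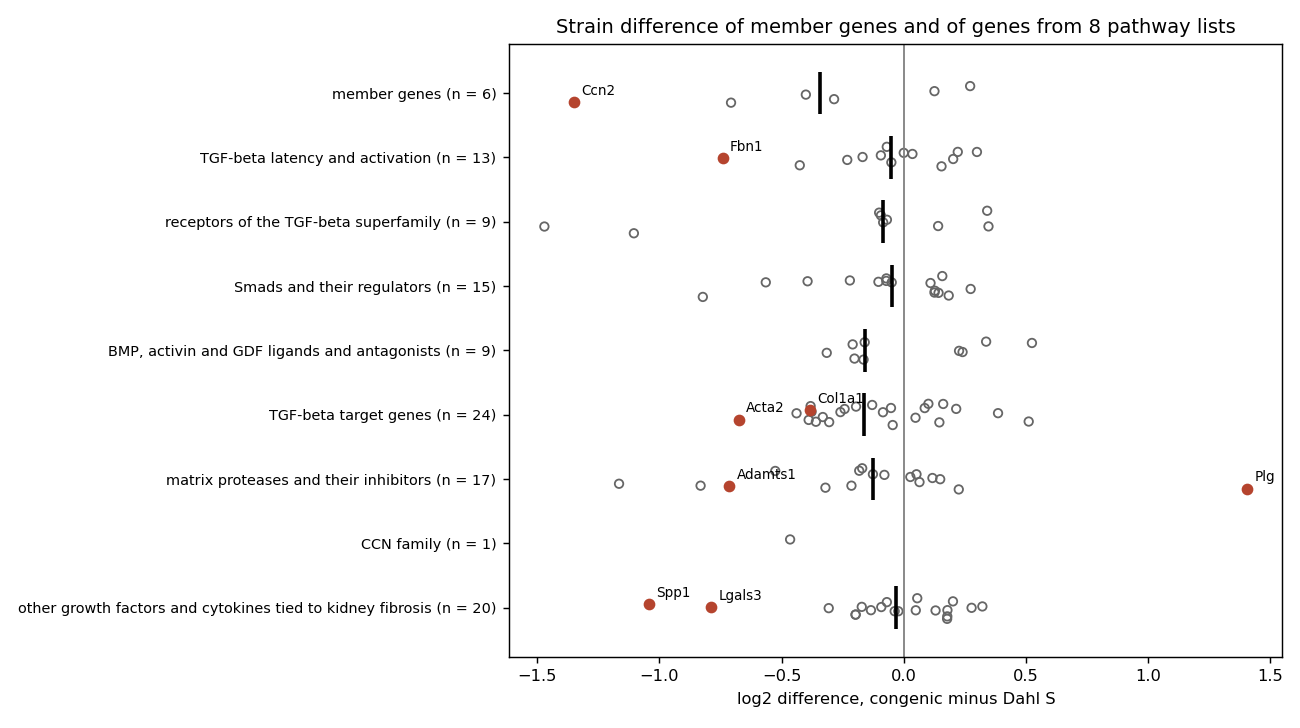
Log2 difference (congenic minus Dahl S) of the 6 member genes and of the tested genes of 8 pathway lists, 1 probe set per gene. Filled and named points have an unadjusted limma p under 0.05, black bars are medians, and none of the points passed the adjusted threshold.

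Marker lists of other cell types were read beside these genes. Of 11 tested fibroblast and stroma markers 10 were lower in the congenic strain (median -0.35). Their summed signal was 6095.8 to 7485.3 in Dahl S and 4848.2 to 5373.3 in the congenic kidneys. As 7 of the 11 are also in the pathway lists above, this is largely a reading of the same genes. Dcn is not in those lists. It read 1108.7, 1131 and 1130.8 in Dahl S and 874.9, 598.8 and 649.5 in the congenic kidneys, without overlap. Its difference was -0.69 (SE 0.17, adjusted limma p 0.9997), and its 5 tested probe sets ranged from -1.06 to -0.19. The other markers outside the lists were Myl9 (-0.35, SE 0.29), Lum (-0.35, SE 0.54) and Myh11 (+0.50, SE 0.71). Of 10 leukocyte markers 8 were lower (median -0.34), with sums of 4995.9 to 6431.3 against 4510.3 to 4933.5. The nearest leukocyte sums were those of the samples numbered 3, of which Cd74 alone made up 2285.2 in Dahl S and 2094.4 in the congenic strain. The 2 tested platelet markers, of a cell rich in Tgfb1, had sums of 196.6 to 265.3 against 210.5 to 235.2, and of the 8 endothelial markers 3 were lower (median +0.064). Of 5 red blood cell markers 4 were lower (median -0.43). Their sums were 11231.3, 13609.9 and 46890.4 in Dahl S and 16953.8, 14364.9 and 9054.3 in the congenic kidneys. Dahl S sample 3 thus stood far above all other samples, whose sums overlapped between the strains. Of the 13 kidney markers 10 were higher (median +0.10). No tested marker of these lists had a signal of 0 in any sample, and the part of cell makeup in the Ccn2 and Timp1 differences was not tested.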

How the data were processed

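Deposited values were read for kidney RNA of 3 Dahl S and 3 congenic samples on 3 array types. They are linear intensity values that the authors deposited for each probe set, scaled to an equal trimmed mean on each array (from the values, 150.1 to 150.2 with 2% trimmed at each end). The sources used here do not name the summarising software. No further scaling was applied. Groups and numbers came from the titles, and tags joined the arrays of a sample. Values below the 10th percentile of their type (3.1, 6.8 and 4.9 on types A, B and C) were raised to it before log2, 59 controls per type were left out, and probe sets under the 40th percentile of mean log2 signal (levels 21.2, 39.3 and 37.7) were not tested. The platform annotation names a single gene for 18178 probe sets, more than 1 for 391 and no gene for 7633; 18122 matched the GRCr8 gene table by gene ID and 0 symbols were updated. The strain difference came from limma 3.58.1, run in R 4.3.3 (lmFit, eBayes with trend, 1 fit per type, Benjamini-Hochberg over all types, threshold 0.05), congenic minus Dahl S, and the fit was tested on simulated data. A gene was represented by its tested probe set of highest mean log2 signal. All member probe sets were named, as were list genes with an unadjusted p under 0.05 or else the 2 with the smallest p, and families (Timp, Ccn, Thbs, Ltbp, Smad) were given by value; Ltbp2, Smad7 and Smad9 were too dim to test. Of the 9 pathway lists, 1 enters the total over all lists and is otherwise not reported here. The members and lists were chosen with earlier results of these data known. Promoter sequences came from RefSeq (GRCr8); 6 of 6 measured members matched. The deviations of same-numbered samples had r of 0.45, 0.08 and 0.18. Dahl S sample 2 with congenic sample 3, and Dahl S sample 3 with congenic sample 2, each had r of 0.15. A sample numbered 1 and the samples numbered 2 and 3 of the other strain had r of -0.30 to -0.20. The samples numbered 1 thus shared a deviation, which the fit reported leaves in its spread. The numbers were not taken as pairs in that fit, and fits with terms for them are given below. Figures used matplotlib 3.10.9 in Python 3.11.15.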

Additional observations from a re-analysis of the deposited data

How the results depend on the processing

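Under every alternative run (floor, filter, quantile or median scaling, eBayes without trend or robust, adjustment within array types, adjusted p of 0.1, sample number terms and each sample left out) limma called 0 probe sets, with 259 (filter at the 60th percentile) to 819 (replicate block) at an unadjusted p under 0.05. Samples sharing a number were not shown to be pairs. Against 391 in the fit reported, 798 had such a p with no filter, 704 with a term for samples numbered 1 and 600 without congenic sample 1. With the replicate block the number was 819, and Ccn2 differed by -1.35 (SE 0.42). Ccn2 read lower in each alternative that could test it, -1.65 to -1.19 with 1 sample left out; the filter at the 60th percentile left it out, so the count of lower members had no value there. That count was 4 or 5 of 6 in the rest. The sign changed for Tgfb3, +0.27 with all samples, -0.47 without both samples numbered 1, -0.35 for the mean of its probe sets and -0.21 to +1.20 with 1 sample left out, for Tgfb1, -1.68 to +0.050, and for the type A probe set of Tgfb2, -1.13 to +0.055, with 1 sample left out; the cause was not tested. Signals near the filter level limit the sizes of dim probe sets.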
